A study of Mus musculus with 9 samples.

Results

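The Hox genes were taken as every protein-coding row whose symbol is Hox, a cluster letter from a to d and a number. The rule gave 38 of 41761 rows, of which 10 lay in cluster A, 10 in cluster B, 9 in cluster C and 9 in cluster D. RNA was sequenced from stromal cells of the inguinal (subcutaneous) fat of wild-type mice, given as C57 in the labels and C57BL/6J in the series' design text, after white adipocyte differentiation in culture. The labels state neither the age nor the sex of the mice. The groups differed in sodium alginate, the salt of a seaweed polysaccharide, which was present throughout differentiation at 0, 50 or 100 µM, with 3 libraries per dose and 9 in all. Every dose, 0 µM included, received insulin (1 µg/ml), dexamethasone (1 µM) and isobutylmethylxanthine (0.5 mM), and the treatment protocol also lists rosiglitazone (1 µM), a PPARγ agonist that the design text does not list. For the 100 µM libraries the title gives 50 µM but both the treatment label and the library name give 100 µM, and the latter was used. The titles give day 6 and the protocol day 7 for collection. The labels do not state whether replicate libraries are separate cultures or mice, so p-values here reflect only how much these libraries vary, which may be technical.

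Hox genes encode homeodomain transcription factors that give cells their position along the head-to-tail and limb axes. In mammals they lie in clusters A to D, ordered from the 3′ end, whose genes act at anterior levels, to the 5′ end, whose genes act at posterior levels, and genes with the same number in different clusters are paralogues that arose by duplication. Stromal cells from different adult fat depots and skin sites keep the Hox pattern of their place of origin in culture, and Hox proteins bind DNA together with TALE cofactors (Pbx, Meis and Pknox).

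The Hox genes that the dose comparisons turn on include members of paralogue groups 8 and 9, of which some rose and others fell in the comparisons with 100 µM. Their upstream sequences are shown because they set these paralogues side by side. RefSeq (GRCm38.p6) windows were found for 22 of the 38 genes, and the 250 bases before the annotated start are used. Hoxa9 lies upstream at chr6:52227371-52227620 on the minus strand, Hoxd9 at chr2:74697513-74697726, Hoxb8 at chr11:96281655-96281904 and Hoxd8 at chr2:74704365-74704614, the last 3 on the plus strand. The Hoxd9 sequence is cut at position -37 from the start, where an annotated untranslated region begins. Exons of Hoxd9 and of the antisense RNA gene Gm28793 cover 110 of the 250 bases of its window. The printed stretch therefore still holds exon bases. Each is written 5′ to 3′ along the gene, and capitals mark matches on either strand to 5 motifs, namely the TATA box with the letters TATAAA, the CCAAT box with those letters, the GC box with GGGCGG, the Hox-Pbx composite site with TGATNNAT and the Meis site with TGACAG.
Hoxa9: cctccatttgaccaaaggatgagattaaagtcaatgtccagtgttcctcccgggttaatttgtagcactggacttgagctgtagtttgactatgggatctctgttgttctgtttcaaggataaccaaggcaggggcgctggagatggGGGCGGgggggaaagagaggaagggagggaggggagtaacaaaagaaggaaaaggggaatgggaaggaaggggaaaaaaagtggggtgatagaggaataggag
Hoxd9: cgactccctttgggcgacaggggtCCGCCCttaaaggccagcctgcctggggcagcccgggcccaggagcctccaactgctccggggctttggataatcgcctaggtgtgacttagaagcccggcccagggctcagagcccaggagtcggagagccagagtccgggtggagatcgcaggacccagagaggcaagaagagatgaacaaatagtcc
Hoxb8: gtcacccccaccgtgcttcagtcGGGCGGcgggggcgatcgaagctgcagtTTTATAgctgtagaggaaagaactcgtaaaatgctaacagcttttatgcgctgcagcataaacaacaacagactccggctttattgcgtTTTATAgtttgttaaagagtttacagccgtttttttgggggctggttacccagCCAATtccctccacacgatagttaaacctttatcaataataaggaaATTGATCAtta
Hoxd8: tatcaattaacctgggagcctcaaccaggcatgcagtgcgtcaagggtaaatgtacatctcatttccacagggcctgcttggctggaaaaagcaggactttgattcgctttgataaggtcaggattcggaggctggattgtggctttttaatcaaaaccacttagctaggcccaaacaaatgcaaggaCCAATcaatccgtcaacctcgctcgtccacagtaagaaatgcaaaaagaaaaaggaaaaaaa

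Hoxb8 held the most matches of these 4 sequences. It held 2 TATA box matches, 1 CCAAT box, 1 GC box and 1 Hox-Pbx composite match, whereas Hoxa9 and Hoxd9 held 1 GC box each and Hoxd8 held 1 CCAAT box. Among all 32851 mouse promoter windows of 250 bases, 12.4% held the TATA box, 33.8% the CCAAT box, 32.7% the GC box, 7.68% the Hox-Pbx site and 15.9% the Meis site. Over the 24 Hox windows these motifs were found in 4, 14, 10, 4 and 2 windows. Annotated exons cover all 250 bases of the Hoxa3 and Hoxc4 windows and part of several others. The counts and medians over the Hox windows therefore include exon sequence. In the 250-base windows Hoxd9 had 65.2% G and C with 13 CpG dinucleotides, Hoxa9 49.6% with 3, Hoxb8 44.4% with 12 and Hoxd8 44.4% with 6. The medians were 58.6% and 12.5 CpG over the Hox windows and 52.4% and 6 over all windows. A match is a run of letters and does not show that a factor binds there.

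RNA was found mainly from the middle of the clusters. Expression is given in FPKM (fragments per kilobase of a gene's length, relative to library depth), and 23 of the 38 genes reached 1 FPKM in at least 3 libraries, the level needed to enter the tests. They included Hoxa5, Hoxa6, Hoxa7, Hoxa9 and Hoxa10 in cluster A, Hoxb4, Hoxb6, Hoxb7, Hoxb8 and Hoxb9 in cluster B, Hoxd4, Hoxd8, Hoxd9 and Hoxd10 in cluster D, and in cluster C all but Hoxc12, which is 8 of 9. Their mean over the 9 libraries reached 18.9 FPKM for Hoxc10, with 12 genes under 5, 7 between 5 and 10 and 4 at 10 or more. The median of these means was 4.56 FPKM, against 7.09 FPKM over all 12635 genes tested. Behind each value stood between 20 and 952 reads per library, so the weakest of these genes are measured with wide counting error.

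The strongest Hox genes were those of groups 6 to 10. Hoxc10, a gene of the lumbosacral and hindlimb region, had the highest level with 18.1, 19.3 and 16.5 FPKM at 0 µM. Hoxc8, a thoracic gene, stood at 15.6, 15.9 and 15.2 FPKM in the same libraries, Hoxc6 at 12.5, 12.8 and 11.3 FPKM and Hoxd8 at 9.65, 11.4 and 12.6 FPKM. Hoxc6 and Hoxd8 overlapped at 0 µM, so their order there did not exceed the spread between libraries, whereas Hoxc10 lay above Hoxc8 in each of the 3 libraries and Hoxc8 above Hoxc6. By the mean over the 9 libraries the highest gene of cluster A was Hoxa9 and of cluster B Hoxb6. At 0 µM the mean of Hoxa10 was 6.67 FPKM and that of Hoxa9 6.53 FPKM, with overlapping libraries. Hoxb6 was at 5.70, 5.10 and 5.38 FPKM at 0 µM, where Hoxb7 overlapped it. Their means over the 9 libraries were 5.73 and 5.72 FPKM, and at 100 µM Hoxb8 had the highest mean of cluster B (6.74 FPKM). The most 5′ genes above the filter were Hoxa10, Hoxb9, Hoxc13 and Hoxd10, and further 5′ the clusters gave little RNA.

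**Figure D1:**
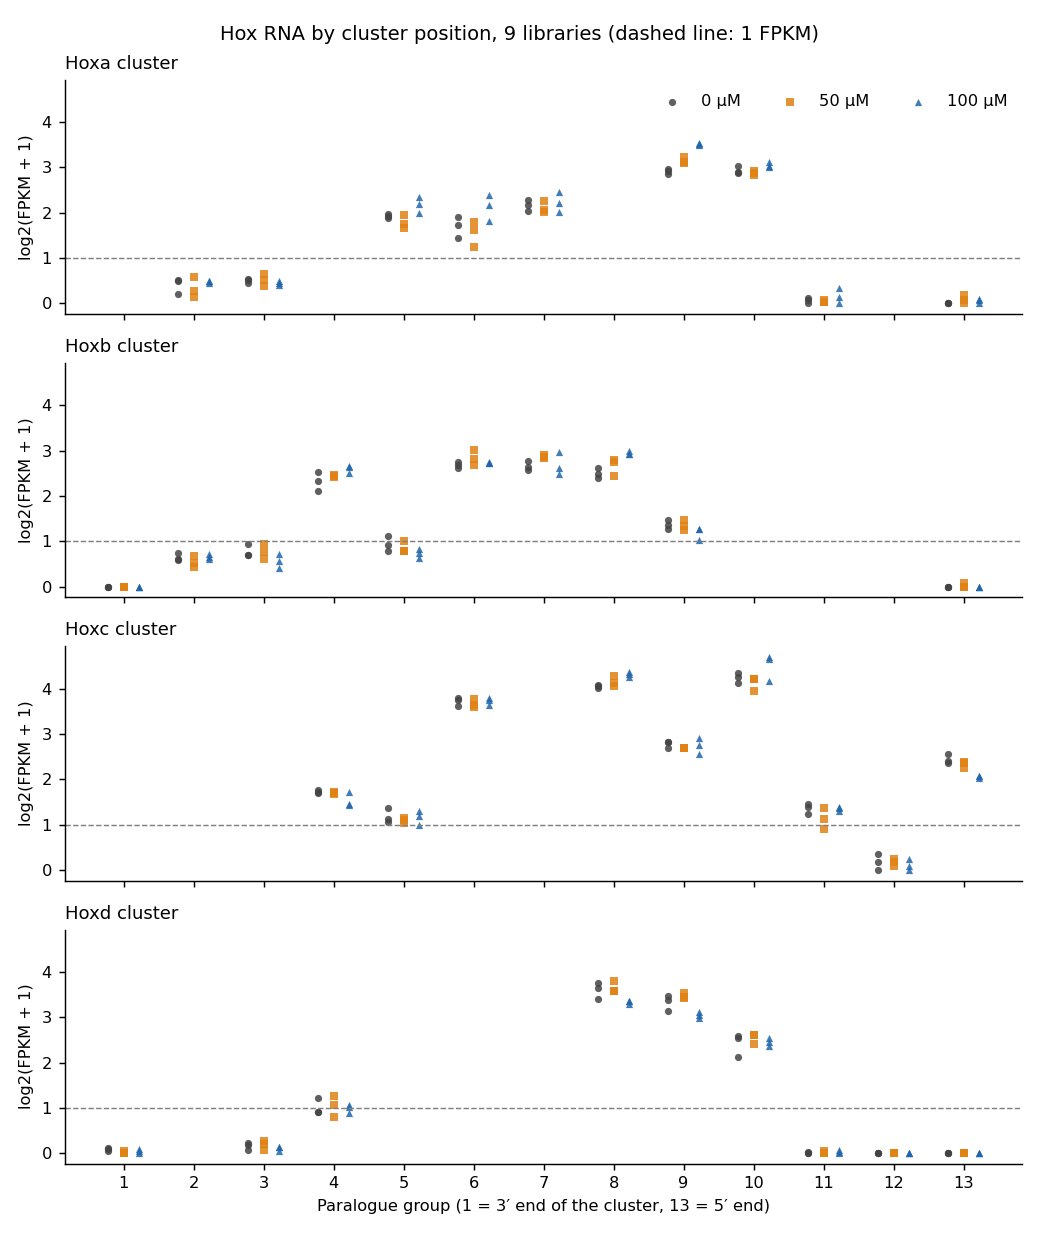
Level of 37 of the 38 Hox genes as log2(FPKM + 1) (y axis) by paralogue number (x axis) in clusters A to D, with 1 mark per library, shape and colour for the dose and a dashed line at 1 FPKM. Levels are highest at groups 6 to 10, and cluster C alone has a gene above 1 FPKM past group 11, Hoxc13, with Hoxc12 beside it near 0.

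The 15 genes below the filter were the 5′ and several 3′ members. Hoxb1, Hoxd12 and Hoxd13 had 0 reads in all 9 libraries, which at 3 reads allows up to 0.0941, 0.0871 and 0.0889 FPKM in the shallowest library by counting error alone. Hoxa11, Hoxa13, Hoxb13, Hoxc12, Hoxd1, Hoxd3 and Hoxd11 had reads but averaged under 0.2 FPKM. Hoxa2, Hoxa3, Hoxb2, Hoxb3 and Hoxb5 averaged between 0.334 and 0.805 FPKM, and Hoxb5 reached 1 FPKM in 2 libraries. In cluster C the pattern was broken at group 12, since Hoxc13, known for its role in hair and nail, averaged 3.88 FPKM while its neighbour Hoxc12 averaged 0.111 FPKM with 16 reads over the 9 libraries.

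Gene models in the clusters overlap, and whether counting used strand is not stated in the labels. Of the 38 Hox rows, 22 overlap another row, 14 of them a row on the same strand, 13 a row on the opposite strand and 10 another Hox row. The Hoxc5 row spans Hoxc6, Hoxc8 and Hoxc9 and overlaps most of Hoxc10 (5487 bases), and the Hoxa3 row spans Hoxa5 and Hoxa6. Among the tested genes 14 of 23 overlap another row, Hoxa9 with the microRNA gene Mir196b among them, and their levels are uncertain to that extent.

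Rebuilt reads ranged from 14019672 to 17094467 per library. On the first principal component of the tested genes the 0 and 50 µM libraries lay between -15.0 and -4.30 and the 100 µM libraries between 18.2 and 21.4, and on the second 50 µM library 3 stood apart at 19.1 while the others lay between -11.4 and 4.62. Mature adipocyte markers were abundant, with a summed level of 7388 to 7518 FPKM at 0 µM, of 7971 to 8400 at 50 µM and of 10549 to 11256 at 100 µM, and 13 of 13 tested rose at 100 µM (Lep, the remaining marker of 14, was below the filter). Progenitor markers summed to 1432 to 1486, 1210 to 1362 and 983 to 1048 FPKM, with 9 of 12 tested lower and 0 higher at 100 µM. Endothelial markers summed to 177 to 197, 173 to 191 and 147 to 151 FPKM (9 of 11 lower), macrophage markers to 185 to 201, 188 to 199 and 144 to 151 FPKM (6 of 8 lower), and smooth muscle and pericyte markers to 343 to 386, 344 to 402 and 238 to 261 FPKM (3 of 10 lower, 2 higher). Both tested mesothelial markers of 8 were lower, and no epithelial or lymphocyte marker reached the filter, with Cd3d and Trbc1 among those at 0 reads. Of the 2 tested skeletal muscle markers 0 were called, and of the 2 tested Schwann cell markers 1 was lower. These calls use the same limma fit as the Hox results, in which 15.6% of all genes tested were lower and 18.3% higher at 100 µM than at 0 µM. The adipocyte and progenitor sums did not overlap between any of the doses. The endothelial, macrophage, and smooth muscle and pericyte sums overlapped between 0 and 50 µM and were lower at 100 µM. The part of these marker sums in the Hox results below was not tested. In bulk RNA fewer cells of a type and less RNA per cell cannot be told apart.

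The comparison of 100 µM with 0 µM asked whether alginate moved the Hox pattern. At 100 µM Hoxa9, Hoxb8 and Hoxc8 rose and Hoxc13 and Hoxd9 fell, and no Hox gene crossed from silent to strongly expressed or back. Here a called gene is one whose limma p, adjusted by Benjamini-Hochberg over all 12635 genes, was below 0.05. Of the 23 Hox genes tested 5 were called, 21.7%, against 33.9% of all genes tested and 29% of the 9126 genes within the level range of the Hox genes. By direction 3 of 23 were higher, where 18.3% of all genes were, and 2 of 23 lower, where 15.6% of all genes were. The share of Hox genes called was thus not above that of other genes. Libraries at 100 µM lay wholly above those at 0 µM for 4 of 23 Hox genes, against 25% of all genes, and wholly below for 3 of 23, against 22.9%. The log2 fold changes of the 23 genes ran from -0.38 to 0.60 with a median of 0.03, against 0.01 over all genes tested, and 13 were above 0 and 10 below.

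Hoxa9, a homeodomain factor of the thoracolumbar level that is also known from blood progenitors, showed the largest change of any Hox gene tested between 0 and 100 µM. In the C57BL/6NJ assembly of the deposited table its minus-strand row covers chromosome 6 from 52600579 to 52608558. Its level was 6.84, 6.20 and 6.55 FPKM at 0 µM, 8.36, 7.52 and 7.71 at 50 µM and 10.2, 10.4 and 10.6 at 100 µM. The 3 doses did not overlap, and the levels were ordered as the doses were. From 0 to 100 µM mean FPKM rose 1.60-fold, and on the log2(FPKM + 1) scale used for the test the change was 0.60 ± 0.0533 (SE, n = 3 libraries per dose, adjusted p = 5.46e-05 in limma).

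Hoxb8, the thoracic gene of cluster B, stood at 5.16, 4.61 and 4.29 FPKM at 0 µM, 5.72, 5.95 and 4.47 at 50 µM and 6.62, 6.62 and 6.97 at 100 µM. All 100 µM libraries lay above all others, while 0 and 50 µM overlapped. From 0 to 100 µM the log2 fold change was 0.45 ± 0.0945 (SE, limma adjusted p = 0.00581). Hoxc8 was at 15.6, 15.9 and 15.2 FPKM at 0 µM, 18.5, 16.4 and 15.6 at 50 µM and 18.1, 19.7 and 19.1 at 100 µM. The 100 µM libraries lay above the 0 µM libraries but overlapped those at 50 µM. Its log2 fold change was 0.27 ± 0.0632 (SE, limma adjusted p = 0.0102), and it lost the call when each library was rescaled to a common sum (0.19, adjusted p = 0.0588).

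Hoxc13 fell, with 4.10, 4.29 and 4.92 FPKM at 0 µM, 4.23, 3.75 and 4.09 at 50 µM and 3.20, 3.08 and 3.23 at 100 µM. Each 100 µM library lay below every other library. The log2 fold change from 0 to 100 µM was -0.38 ± 0.0710 (SE, limma adjusted p = 0.00309). Hoxd9, the cluster D paralogue of Hoxa9, was at 7.75, 10.1 and 9.44 FPKM at 0 µM, 9.76, 10.6 and 9.83 at 50 µM and 7.66, 7.30 and 6.88 at 100 µM. Its 100 µM libraries were below all others, with 0 µM library 1 only just above them. The log2 fold change was -0.28 ± 0.0853 (SE, limma adjusted p = 0.0318), and the call was lost without 0 µM library 2 (adjusted p = 0.105) or 3 (0.0976), or without 100 µM library 2 (0.0742) or 3 (0.0967).

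**Figure D2:**
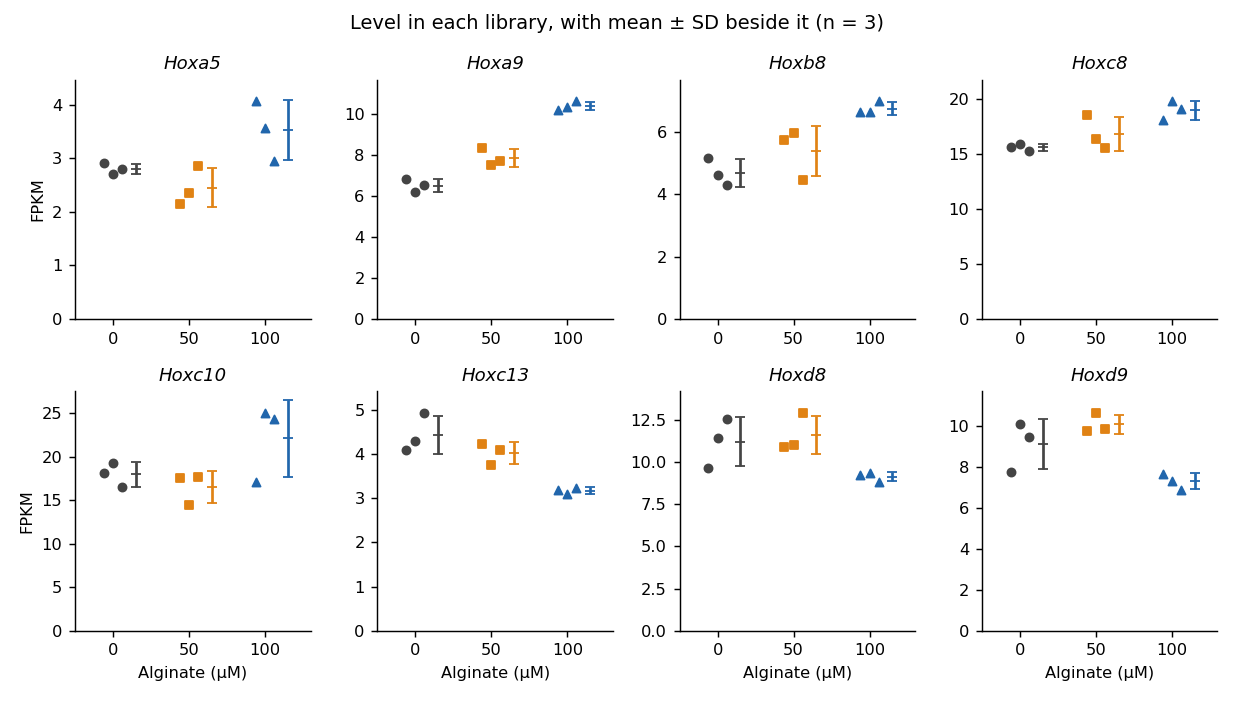
Level in FPKM (y axis, from 0) of 8 Hox genes in each of the 9 libraries, by alginate dose in µM (x axis), with marks for libraries and a bar beside them for the mean ± SD of 3. Hoxa9 lies higher at each dose, Hoxc13 and Hoxd9 are lowest at 100 µM, and the 100 µM libraries of Hoxc10 are spread from 17.0 to 25.0 FPKM.

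Other members of the same paralogue groups were not called at 100 µM, and their intervals are given because a missed threshold does not show that they were unmoved. Among the group 9 genes, Hoxb9 was at 1.77, 1.58 and 1.41 FPKM at 0 µM, 1.52, 1.38 and 1.76 at 50 µM and 1.42, 1.43 and 1.04 at 100 µM, with a log2 difference of -0.17 (95% interval -0.42 to 0.07). Hoxc9 had a log2 difference of -0.04 (95% interval -0.23 to 0.16), beside 0.60 (0.48 to 0.72) for Hoxa9. The difference between these genes in their response was not tested. Hoxd8, of group 8, was at 9.65, 11.4 and 12.6 FPKM at 0 µM, 10.9, 11.0 and 12.9 at 50 µM and 9.26, 9.32 and 8.83 at 100 µM. The 100 µM libraries lay below all others, but the log2 difference from 0 µM of -0.26 (95% interval -0.47 to -0.05) just missed the threshold (limma adjusted p = 0.0541), and it passed when the values were rescaled to a common sum (0.0158). Groups 8 and 9 thus each had a member called higher, while Hoxd9 was called lower and Hoxd8 was not called.

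The ratio of paralogues within each library shows the same values as a balance. Hoxa9 over Hoxd9 in FPKM was 0.730 ± 0.138 at 0 µM, 0.783 ± 0.0737 at 50 µM and 1.43 ± 0.106 at 100 µM (SD, n = 3). It was at most 0.883 in any 0 or 50 µM library and at least 1.34 at 100 µM. In FPKM Hoxd9 was thus the stronger of the pair in the first 6 libraries and Hoxa9 in the last 3. That order depends on the row lengths by which FPKM divides, 5577 bases for Hoxa9 and 2136 for Hoxd9. In rebuilt reads Hoxa9 was above Hoxd9 in every library, so only the change of the ratio is free of length. Hoxb8 over Hoxd8 was 0.426 ± 0.0988, 0.471 ± 0.108 and 0.738 ± 0.0446. These pairs were chosen after the values were seen and are given with no test.

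Several neighbours of the called genes were not called. Hoxa10, next to Hoxa9 on its 5′ side, was at 7.21, 6.49 and 6.31 FPKM at 0 µM, 6.61, 6.38 and 6.15 at 50 µM and 7.00, 7.65 and 7.15 at 100 µM. The 0 and 100 µM libraries overlapped, and the log2 difference was 0.11 (95% interval -0.03 to 0.24). Hoxa9 over Hoxa10 went from 0.980 ± 0.0495 at 0 µM to 1.23 ± 0.0463 at 50 µM and 1.43 ± 0.0699 at 100 µM. Hoxd10, next to Hoxd9, was at 4.82, 3.38 and 5.03 FPKM at 0 µM, 4.32, 5.07 and 5.05 at 50 µM and 4.13, 4.82 and 4.45 at 100 µM, and all 3 doses overlapped (log2 difference 0.03, 95% interval -0.24 to 0.30). Hoxb6 was at 5.70, 5.10 and 5.38 FPKM at 0 µM, 7.04, 6.03 and 5.45 at 50 µM and 5.60, 5.59 and 5.72 at 100 µM, with a log2 difference of 0.05 (95% interval -0.12 to 0.23).

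Hoxc10 was the strongest Hox gene and the most variable of the strong ones. It was at 18.1, 19.3 and 16.5 FPKM at 0 µM, 17.5, 14.4 and 17.7 at 50 µM and 17.0, 25.0 and 24.4 at 100 µM. Libraries 2 and 3 at 100 µM were the highest of all 9, and 100 µM library 1 lay within the range of the others. The log2 difference of 0.27 (95% interval -0.04 to 0.58) was not called (limma adjusted p = 0.167), whereas without 100 µM library 1 it was 0.44 and was called (0.00948). Hoxb4 came close to the threshold as well, with a mean of 4.03 ± 0.708 FPKM at 0 µM and 5.07 ± 0.345 FPKM at 100 µM (SD, n = 3, log2 difference 0.28, limma adjusted p = 0.0502).

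**Figure D3:**
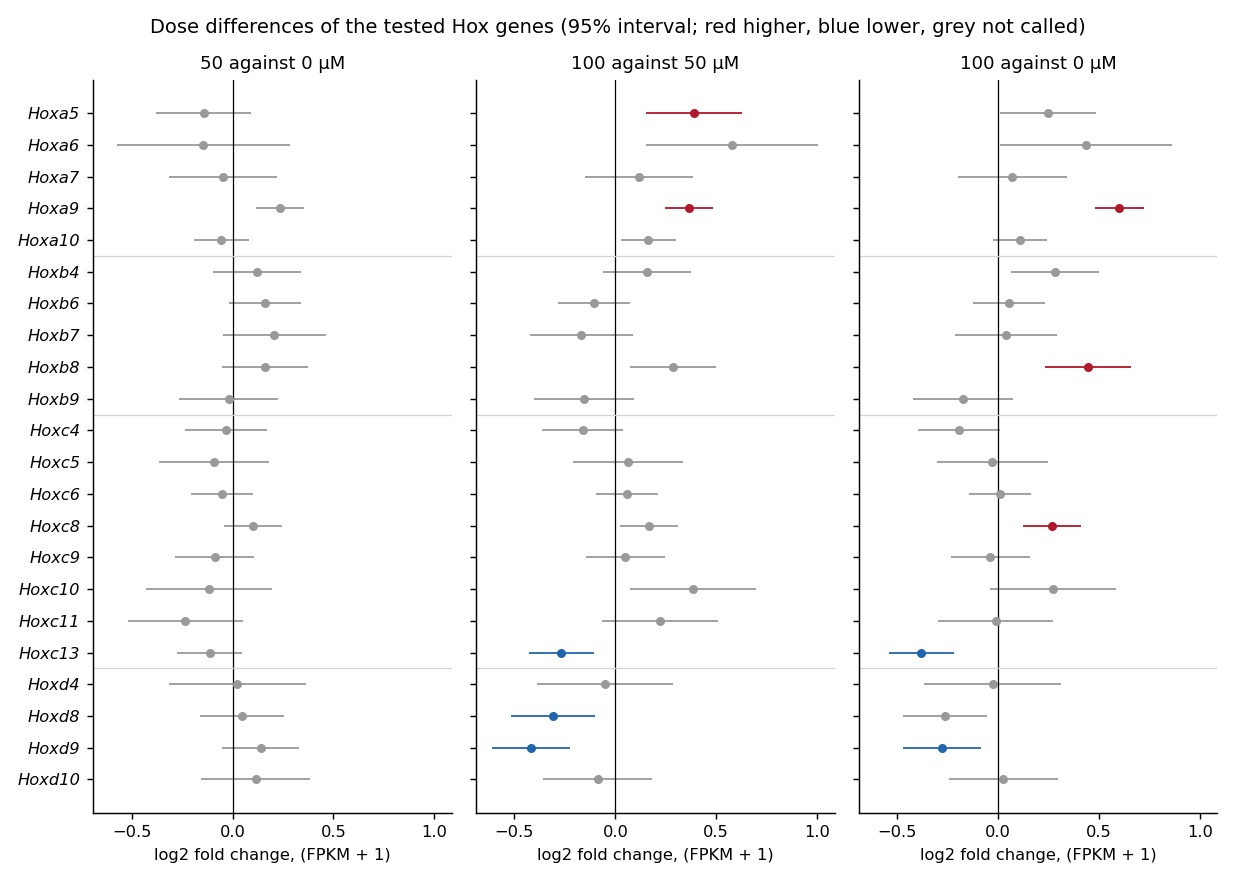
Log2 difference in FPKM + 1 (x axis) of 22 of the 23 tested Hox genes (y axis, by cluster) for 50 against 0, 100 against 50 and 100 against 0 µM, with points for the limma estimate and lines for its 95% interval. Red marks genes called higher, blue genes called lower and grey genes not called. No gene is called at 50 against 0 µM and 5 are called in each of the other comparisons.

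The comparison of 50 µM with 0 µM called 0 of 23 Hox genes in limma, against 0.791% of all genes tested (0.435% lower and 0.356% higher) and 0.285% within the Hox level range, and voom on the rebuilt reads also called 0. Hoxa9 alone passed 0.05 before adjustment, and its limma adjusted p was 0.081. Its 50 µM libraries lay above its 0 µM libraries, with a log2 difference of 0.24 ± 0.0533 (SE). Apart from Hoxa9, only Hoxb7 had 50 µM libraries that did not overlap with and lay above those at 0 µM, 2 of 23 genes against 12.1% of all genes tested, and 0 of 23 lay below without overlap, against 8.58%. The log2 differences of the 23 genes ran from -0.23 for Hoxc11 to 0.24 for Hoxa9 with a median of -0.02, against 0.01 over all genes tested.

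The comparison of 100 µM with 50 µM called 5 of 23 Hox genes, 21.7%, against 25.1% of all genes tested and 20.3% within the Hox level range. It shares its 100 µM libraries with the comparison against 0 µM. Hoxa5 and Hoxa9 rose (2 of 23, against 13.2% of all genes) and Hoxc13, Hoxd8 and Hoxd9 fell (3 of 23, against 12% of all genes). Values did not overlap between these doses for 6 Hox genes that were higher at 100 µM, against 20.9% of all genes, and for 3 that were lower, against 19.5%. The log2 fold change was 0.37 for Hoxa9 (limma adjusted p = 0.00138), -0.42 ± 0.0853 for Hoxd9 (SE, adjusted p = 0.00723), -0.27 for Hoxc13 (0.0238) and -0.31 for Hoxd8 (0.0366). Hoxa5, a gene of the cervicothoracic level known for its role in lung and in fat tissue, was at 2.90, 2.70 and 2.79 FPKM at 0 µM, 2.15, 2.35 and 2.85 at 50 µM and 4.06, 3.57 and 2.95 at 100 µM. The 100 µM libraries were above all others, though library 3 only by a little. That gap is smaller in proportion than the difference in the authors' factor per library, described under processing. The log2 fold change was 0.39 ± 0.105 (SE, limma adjusted p = 0.0254), and against 0 µM the difference of 0.25 was not called (0.105). The Hoxa9 and Hoxd9 calls held without any single library, whereas those of Hoxa5, Hoxc13 and Hoxd8 were lost in 4, 5 and 6 of the 9 fits that left out 1 library, with adjusted p up to 0.0790, 0.0748 and 0.114.

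Over the doses as a whole, limma's F test called 6 of 23 Hox genes (Hoxa5, Hoxa9, Hoxb8, Hoxc8, Hoxc13 and Hoxd9), against 30.5% of all genes tested. The count fell to 3 without 100 µM library 3 (Hoxa5, Hoxa9 and Hoxc13).

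Summed over its members, cluster A was higher and cluster D lower at 100 µM. The cluster A sum was 24.2, 22.3 and 24.2 FPKM at 0 µM, 24.6, 23.2 and 24.1 at 50 µM and 29.6, 29.7 and 31.2 at 100 µM. The cluster D sum was 23.2, 26.5 and 28.1 FPKM at 0 µM, 26.1, 28.3 and 28.7 at 50 µM and 22.1, 22.7 and 21.3 at 100 µM. In both clusters the 100 µM libraries lay apart from all 6 others, with 0 µM library 1 of cluster D nearest to them. The cluster B sum was 23.2 ± 1.37, 25.8 ± 1.36 and 26.0 ± 0.904 FPKM and the cluster C sum 61.3 ± 2.78, 59.3 ± 3.32 and 67.0 ± 6.32 FPKM (SD, n = 3). In cluster B the 100 µM libraries (25.2 or more) lay just above those at 0 µM (24.6 or less), and in cluster C the doses overlapped. The gap in cluster B is smaller in proportion than the difference between these libraries in the authors' factor, described under processing. Cluster D gave 19.4% of all Hox FPKM at 0 µM, 20.3% at 50 µM and 15.2% at 100 µM, and cluster A 17.6%, 17.5% and 20.8%. A sum is led by its strongest members, which in cluster D were Hoxd8 and Hoxd9. The cluster A sum did not follow Hoxa9 alone. At 50 µM the mean of Hoxa9 was 7.87 FPKM, against 6.53 at 0 µM, while the cluster A sums of these doses overlapped. At 100 µM 5 of the 6 tested genes of cluster A had a log2 difference from 0 µM above 0. By single genes the median log2 difference from 0 to 100 µM was 0.18 over the 6 tested genes of cluster A, 0.05 over 5 of B, -0.02 over 8 of C and -0.15 over 4 of D.

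**Figure D4:**
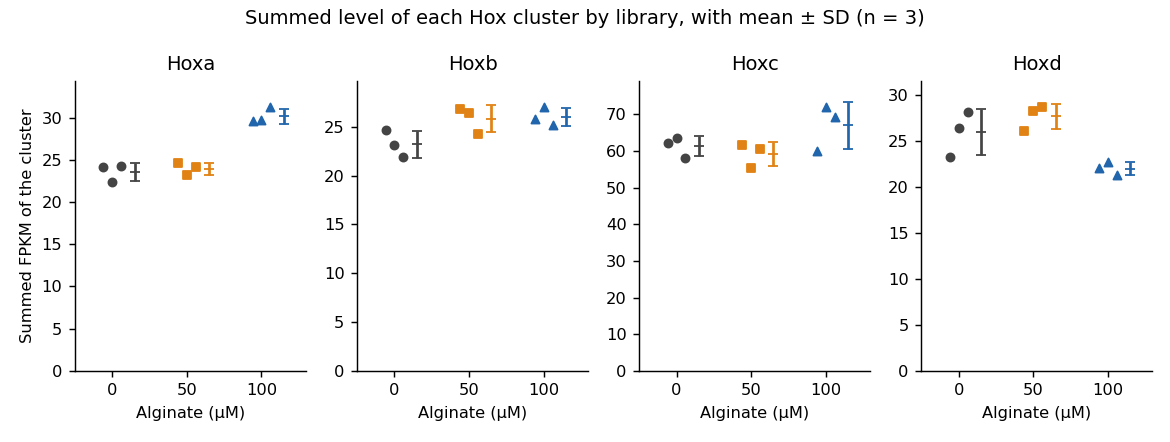
Summed level of the Hox genes of each cluster in FPKM (y axis, from 0) in each library, by alginate dose in µM (x axis), with marks for libraries and a bar beside them for the mean ± SD of 3. The 100 µM libraries of cluster A lie above 29 FPKM and all others below 25, and those of cluster D lie below all others.

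Other transcripts of the clusters included 44 non-coding rows, of which 14 passed the filter. At 100 µM 1 of these was called, against 33.9% of all genes. It was Hotairm1, an antisense RNA of cluster A. Several of the 14 passed through their short length on few reads, such as Gm27477 (1 to 8 per library) and Mir10b (0 to 2). Such rows could hardly be called, so the low count does not show that these RNAs were unmoved. Hotairm1 was at 2.09, 2.08 and 2.30 FPKM at 0 µM, 3.24, 3.77 and 3.54 at 50 µM and 2.98, 3.09 and 3.45 at 100 µM. The 50 and 100 µM libraries overlapped each other and both lay above 0 µM. Its log2 fold change was 0.40 from 0 to 100 µM (limma adjusted p = 0.00281) and 0.52 from 0 to 50 µM (0.0253), on 31 to 62 reads per library, and with voom on the rebuilt reads neither passed (0.0802 and 0.133). The call at 50 µM was also lost without any 1 of the 0 µM libraries and without 50 µM library 2 or 3 (adjusted p of 0.0690 to 0.105). It did not pass either with no filter (0.0608), without a variance trend (0.0632), with only the compared doses (0.0593) or with a replicate block (0.0629). Of the protein-coding genes within 250 kb of the cluster ends that are not Hox genes, 11 were tested, and 5 were higher (Atp5g1, Calcoco1, Smug1, Copz1 and Mtx2) and 1 lower (Hnrnpa1) at 100 µM, against 18.3% higher and 15.6% lower over all genes. Mtx2, beside cluster D, rose from 18.9 to 25.6 FPKM while Hoxd9 fell. Evx1 and Evx2, homeobox genes at the 5′ ends of clusters A and D, were below the filter.

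Tested TALE homeodomain cofactors had means between 1.11 FPKM for Meis1 and 11.4 FPKM for Pbx2, and Pbx4, at 0.149 FPKM, was below the filter. Of 9 tested, 1 rose at 100 µM and 2 fell, against 18.3% higher and 15.6% lower over all genes. Pbx2 rose from 10.2 to 11.8 FPKM (limma adjusted p = 0.0259, log2 fold change 0.20), a call lost on rescaling to a common sum (0.143). Pknox2 fell from 4.02 to 2.53 FPKM (-0.51, limma adjusted p = 0.00109). Meis1 had 1.11 FPKM at 0 µM, 1.12 at 100 µM, and was not called.

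Polycomb complexes keep Hox genes silent and trithorax complexes keep them active, and 7 of the 33 subunit and partner genes tested were called at 100 µM, against 33.9% of all genes. Of 10 tested PRC2 genes, Jarid2 (4.32 to 5.79 FPKM) and Suz12 (15.8 to 18.0 FPKM) rose and Rbbp7 fell at 100 µM. Of 11 tested PRC1 genes, 0 rose and 2 fell, Cbx6 from 18.9 to 14.2 FPKM and Cbx2 from 1.63 to 1.22 FPKM. Of 12 tested trithorax-side genes, Dot1l and the H3K27 demethylase gene Kdm6b rose and 0 fell. On rescaling to a common sum the counts were 1 higher and 2 lower for PRC2, 0 and 4 for PRC1, and 1 and 1 for the trithorax side, so the counts by direction changed with the scaling. The calls of Suz12 (adjusted p = 0.230 in limma) and Kdm6b (0.122) were lost on that rescaling and also with the authors' factor removed (0.131 and 0.0648), and those of Suz12 (0.0792) and Cbx2 (0.108) with quantile normalization. Among inducers of Hox genes, Cdx1, Cdx2 and Cdx4 had 0 reads in every library, and of the 3 retinoic acid receptor genes Rara was lower at 100 µM (5.00 to 3.84 FPKM), a call lost with quantile normalization (limma adjusted p = 0.0639).

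Transcription factors of other families that mark position or depot were tested beside the Hox genes. Of 40 such genes 23 passed the filter. At 100 µM 9 fell, where 15.6% of all genes did, and 1 rose, where 18.3% did. Prrx1, a limb mesenchyme factor, fell from 43.6 to 31.6 FPKM (log2 fold change -0.45), and Tbx15, a marker of some subcutaneous depots, fell from 26.1 to 18.2 FPKM (-0.50). Tbx18 fell from 7.89 to 5.63 FPKM and Meox2 from 7.49 to 5.18 FPKM. The median log2 difference of the 23 was -0.16, beside 0.01 over all genes tested and 0.03 over the Hox genes. In all 6 lists of cofactors, chromatin regulators, inducers and positional factors, 0 genes were called at 50 against 0 µM. Of all genes tested 0.791% were called there, so a count of 0 does not set these lists apart. The members of these lists, like the Hox genes, were read beside progenitor marker sums that were lower at 100 µM, and the part of those markers was not tested.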

How the data were processed

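The authors deposited FPKM values per gene for 9 libraries in 1 table with gene length and position, per the file headers. The name of the aligner, of the counter and of its strand setting is not given in the sources used here. GRCm38 and mm10 are the builds in the submitters' processing notes, but gene identifiers and coordinates in the table belong to the C57BL/6NJ strain assembly, on which Hox rows are placed here. Promoter windows come from RefSeq on GRCm38.p6 and were matched by symbol only. Multiplying FPKM by length gave whole reads, within 0.01 read, for 100% of values once divided by a constant of each library, and these rebuilt reads were used for depth. The deposited values carry a factor per library of the authors', and the scaling total over reads was 0.969 to 0.976 in the 100 µM libraries and 1.01 to 1.03 in all others.

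The fit used limma 3.58.1 (R 4.3.3) on log2(FPKM + 1). Log2 fold changes refer to FPKM + 1 and are smaller than those of FPKM itself for weak genes. The filter was 1 FPKM or more in 3 or more of the 9 libraries and left 12635 genes. The model had a mean for each dose over the 9 libraries and a variance trend on expression, all tests were two-sided, and adjusted p-values are Benjamini-Hochberg over all genes tested. The procedure was also run on simulated reads, with changes larger than those of any Hox gene tested here. That run does not show how well changes of the size of the Hox changes are found. The Hox genes and 16 gene lists (196 genes, 193 found) were chosen with earlier results of these data known. Values in every library were given for each Hox gene called in any comparison. They were also given for the gene with the highest mean over the 9 libraries and the most 5′ gene above the filter in each cluster. From the lists, counts and up to 4 tested genes with the smallest p at 100 against 0 µM were to be named. Meis1, Hoxa6, Hoxb4, Hoxb7, Hoxc6 and Hoxc9 were added after values were seen. Other rows in or near a cluster were named by the highest means or beside small counts. A few genes counted in the totals are not reported here by name. Intervals of differences are 95% limma intervals. The 3-read limits for genes at 0 cover counting error only. Alternatives were another pseudocount, other filters, rescaling to a common sum (TPM), quantile normalization, voom on the rebuilt reads, no variance trend, only the compared doses, a replicate block and leaving out each library. Removal of the authors' factor was added after seeing the data.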

Additional observations from a re-analysis of the deposited data

How the results depend on the processing

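No Hox gene changed direction past the threshold under any of the 19 alternatives run. Hoxa9 was called at 100 against 0 and 100 against 50 µM under every one, Hoxb8 and Hoxc13 at 100 against 0 µM and Hoxd9 at 100 against 50 µM likewise. With no filter on low values, 1 Hox gene was lower at 100 against 0 µM (2 otherwise), 1 lower (3) and 1 higher (2) at 100 against 50 µM. With only the compared doses in the fit these counts were 1 lower at 100 against 0 µM and 1 higher at 100 against 50 µM, and voom on the rebuilt reads gave 5 higher at 100 against 50 µM. Leaving out each library in turn gave 1 to 3 lower and 3 to 4 higher at 100 against 0 µM, 1 to 3 lower and 2 to 3 higher at 100 against 50 µM, and 3 to 6 called over the doses. At 100 against 0 µM only Hoxc13 stayed called lower without 0 µM library 2 or 3 or 100 µM library 2, and at 100 against 50 µM only Hoxd9 without 50 µM library 3 or 100 µM library 1 or 3. At 50 against 0 µM every alternative called 0 Hox genes, while over all genes the calls ran from 0 to 332 (100 as reported). The cause of these changes was not tested.

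Same-numbered libraries did not deviate together over the tested genes taken as a whole (correlations of -0.0941 to 0.0412 over 9 pairs). Pairs with different numbers gave -0.0814 to 0.0983 over 18 pairs. Such correlations can miss a pairing that is weak or limited to some genes, so whether the numbers pair the samples is not known. A replicate block gave 2 lower and 3 higher Hox genes at 100 against 0 µM and 3 and 2 at 100 against 50 µM, where Hoxa5 was not called (limma adjusted p = 0.0566) and Hoxa6 was. Rescaling to a common sum moved the calls over all genes at 100 against 0 µM to 1630 higher and 2633 lower, and removing the authors' factor, which differs between 100 µM and the other doses, to 1731 and 2658, from 2314 and 1965. A filter of 0.5 FPKM left 26 Hox genes and one of 2 FPKM left 18 (23 as reported). Depth limits the genes with the fewest reads, such as Hoxc11 (28 to 51 per library).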

Other observations

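The table has no row with the symbol Hoxa4. A protein-coding row without a symbol, which the deposited table describes as a Hox-A4 homeobox protein and which lies inside cluster A, falls outside the rule and was looked at after its values were seen. It was at 1.57, 1.40 and 1.49 FPKM at 0 µM, 1.99, 1.85 and 1.81 at 50 µM and 3.08, 1.87 and 1.99 at 100 µM. The 0 µM libraries lay below the others, and 100 µM library 1 was the highest. The log2 fold change from 0 to 100 µM was 0.40 (limma adjusted p = 0.0413), and without that library it was 0.24 and not called (0.0831). The call was lost in 12 of the 19 alternatives in all, with adjusted p of 0.0536 to 0.108, among them each fit without a 0 or 50 µM library, rescaling to a common sum and voom. The row overlaps the long Hoxa3 row on the same strand.

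MicroRNA genes lie between the Hox genes, among them Mir196a-1, Mir10a, Mir615, Mir196a-2 and Mir10b. Those 5 passed the filter through their short length with at most 7 reads in any library, and 0 of them were called at 100 against 0 µM.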
